A study of Mus musculus with 18 samples.

Results

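Cholesterol synthesis and its control in mouse bone marrow mesenchymal stem cells (BMSCs) were described through 27 genes, taken by their symbols from the 56691 genes of the deposited expression table and read in all 18 samples. The genes were 8 of the mevalonate pathway, 3 of the steps through squalene to lanosterol, 8 that turn lanosterol into cholesterol, 4 of sterol sensing, and 4 of sterol transfer, ester storage and export. Each had 1 row in the table. All 27 had enough reads to be tested.

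The BMSCs were wild type and the study's methods describe them as collagenase-released cells of compact bone, grown for a few passages. Poly(A) RNA was sequenced on day 4 from 6 groups of 3 samples. Cells with 20 ng/ml FGF9, a secreted fibroblast growth factor, formed the groups CM_F9, OI_F9 and AI_F9, and cells at 0 ng/ml formed the groups CM, OI and AI. CM is culture medium. OI is osteogenic induction medium, to which ascorbate-2-phosphate, beta-glycerol phosphate and dexamethasone were added. AI is adipogenic induction medium and holds insulin, the phosphodiesterase inhibitor IBMX, rosiglitazone, which activates the nuclear receptor PPARG, and dexamethasone at a higher dose than OI. Per the methods OI and AI were made up in alpha-MEM with serum and CM was a commercial medium, so base medium and inducing agents cannot be told apart where AI or OI is set against CM. The labels do not give the age of the mice. The paper describes its replicates as biological, and neither it nor the labels state for these samples whether separate mice or separate cultures of the same cells were used, so p values measure the spread between these samples.

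Library totals were 16719561 to 20526502 reads per sample. Levels are given in FPKM, the read count divided by gene length and library total, as the authors deposited it. Changes are log2 fold changes ± SE fitted to the deposited counts in edgeR with TMM scaling, which evens out differences in library composition. A gene is said to have risen or fallen where the adjusted p of edgeR's quasi-likelihood test (Benjamini-Hochberg over 17631 genes) was at most 0.05. A DEG also had a log2 fold change of at least 1 in size. TMM factors were 0.906 to 0.928 in AI_F9 and 1.05 to 1.06 in AI, so FPKM in AI_F9 read low against AI. Without TMM the median of all genes in AI shifted by -0.206 on the log2 scale.

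Cells build cholesterol from acetyl-CoA by way of mevalonate, isoprenoid diphosphates, squalene and lanosterol. Most enzymes of the route are transcribed under SREBP2, a membrane-bound transcription factor encoded by Srebf2. When membrane sterol is scarce, SCAP escorts SREBP2 to the Golgi, where proteases release its active part. When sterol is plentiful, INSIG1 and INSIG2 hold the SCAP-SREBP2 complex in the endoplasmic reticulum, and the liver X receptors raise the exporters ABCA1 and ABCG1. Adipocytes hold a large pool of free cholesterol, much of it at the surface of the lipid droplet.

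SREBP2 binds sterol regulatory elements, often beside NF-Y at CCAAT boxes, and the letters before the start sites of 6 members are shown for that reason. The windows run from 250 bases before to 50 bases after a RefSeq start site (build GRCm38.p6), and 22 of the 27 genes had one, in 28 windows. Of the 6, Hmgcs1, Lss, Nsdhl and Insig1 became DEGs with FGF9 in AI, Soat1 fell there, and Ggps1 passed the test with FGF9 in none of the media. Only the 250 bases before the start are printed, 5′ to 3′ on the gene's strand. Capitals mark the sterol element core TCACNCCAC, the NF-Y box CCAAT and the E-box CACGTG, each searched on both strands. In the members' windows 0 matches of different motifs overlapped.
Hmgcs1 (chr13:119690101-119690350, plus strand): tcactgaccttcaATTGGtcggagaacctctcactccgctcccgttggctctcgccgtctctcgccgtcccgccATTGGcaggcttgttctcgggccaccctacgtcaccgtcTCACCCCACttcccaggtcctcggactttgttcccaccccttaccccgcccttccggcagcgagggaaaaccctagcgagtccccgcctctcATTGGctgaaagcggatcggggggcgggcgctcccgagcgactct
Lss (chr10:76531355-76531604, plus strand): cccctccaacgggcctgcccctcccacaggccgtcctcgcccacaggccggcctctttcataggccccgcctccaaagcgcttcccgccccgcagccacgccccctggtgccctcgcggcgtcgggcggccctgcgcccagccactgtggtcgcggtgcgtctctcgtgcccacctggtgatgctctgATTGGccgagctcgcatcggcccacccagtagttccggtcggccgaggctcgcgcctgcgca
Nsdhl (chrX:72918271-72918520, plus strand): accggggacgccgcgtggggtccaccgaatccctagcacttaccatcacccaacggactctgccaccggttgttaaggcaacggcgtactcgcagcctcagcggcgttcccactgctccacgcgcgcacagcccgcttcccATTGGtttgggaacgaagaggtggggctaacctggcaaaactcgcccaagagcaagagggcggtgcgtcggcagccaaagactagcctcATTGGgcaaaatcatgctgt
Insig1 (chr5:28071162-28071411, plus strand): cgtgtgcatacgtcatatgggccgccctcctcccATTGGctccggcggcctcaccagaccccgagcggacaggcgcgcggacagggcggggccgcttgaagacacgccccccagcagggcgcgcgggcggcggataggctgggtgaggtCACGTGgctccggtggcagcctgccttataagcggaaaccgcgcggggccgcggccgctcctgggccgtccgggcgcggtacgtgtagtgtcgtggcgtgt
Ggps1 (chr13:14063489-14063738, minus strand): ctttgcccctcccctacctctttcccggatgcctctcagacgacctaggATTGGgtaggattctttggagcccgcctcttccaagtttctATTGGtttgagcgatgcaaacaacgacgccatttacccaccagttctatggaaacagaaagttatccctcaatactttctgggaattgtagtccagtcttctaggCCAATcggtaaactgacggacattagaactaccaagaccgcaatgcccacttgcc
Soat1 (chr1:156474329-156474578, minus strand): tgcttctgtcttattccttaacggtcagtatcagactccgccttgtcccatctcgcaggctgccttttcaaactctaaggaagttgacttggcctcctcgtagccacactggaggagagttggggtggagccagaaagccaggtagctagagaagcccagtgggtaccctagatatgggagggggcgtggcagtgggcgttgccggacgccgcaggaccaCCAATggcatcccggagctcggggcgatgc

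The sterol element core, in this exact spelling, was found in 1 of the 22 members, Hmgcs1, where its first base lay 137 bases before the start. It was found in 1.24% of all 32851 windows and in at least 1 window of 1.44% of all genes. CCAAT was found in 19 of the 22 members and in 41.06% of all genes. Among the 19 were Ggps1 and Tm7sf2, which did not pass the test with FGF9, and Soat1, which fell in AI. CACGTG was found in 6 of the 22 members, Insig1 among them, and in 8.09% of all genes. A match is a description of letters and does not show that a factor binds there.

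FGF9 changed the cholesterol genes in opposite directions in different media. In CM, 15 of the 27 fell and 4 rose with FGF9, where 18.9% of all tested genes fell and 18.5% rose. In OI, 17 fell and 2 rose, where 20.1% of all tested genes fell and 19.8% rose. In AI, 20 rose and 3 fell, where 26.9% of all tested genes rose and 23.7% fell. The median log2 fold change of the members was -0.30 in CM, where that of all tested genes was 0.015. In OI it was -0.32 for the members and 0.010 for all tested genes, and in AI 0.54 for the members and 0.047 for all tested genes. These 3 comparisons have no sample in common.

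The changes in CM and OI were moderate. Under edgeR 0 of the 27 members were DEGs in either direction in CM, where 5.5% of all tested genes were DEGs higher and 5.16% DEGs lower with FGF9. In OI 0 members were DEGs, where 5.48% of all tested genes were DEGs higher and 6.07% DEGs lower. Both counts are also 0 at an unadjusted p under 0.05 and under DESeq2. In AI 5 members were DEGs higher with FGF9, Hmgcs1, Fdps, Lss, Nsdhl and Insig1, where 6.66% of all tested genes were. DEGs lower in AI were 9.32% of all tested genes and 0 of the members under edgeR and DESeq2, also at an unadjusted p under 0.05.

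Of the 27 genes, 12 fell in both CM and OI and rose in AI. They were Acat2, Hmgcs1, Idi1, Fdps, Sqle, Cyp51, Msmo1, Nsdhl, Ebp, Sc5d, Stard4 and Abcg1, which span every stage from acetyl-CoA to cholesterol and one exporter. Of all tested genes 2.97% had that pattern. Another 3 (Pmvk, Lss and Hsd17b7) fell in OI and rose in AI and did not pass the test in CM, as did 1.16% of all tested genes. Scap alone ran the other way, higher in CM and OI and lower in AI, as did 2.98% of all tested genes, and its call in CM and its call in OI were each lost when any 1 of several libraries was left out. Tm7sf2 and Ggps1 did not pass the test in any of the 3 media.

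**Figure D1:**
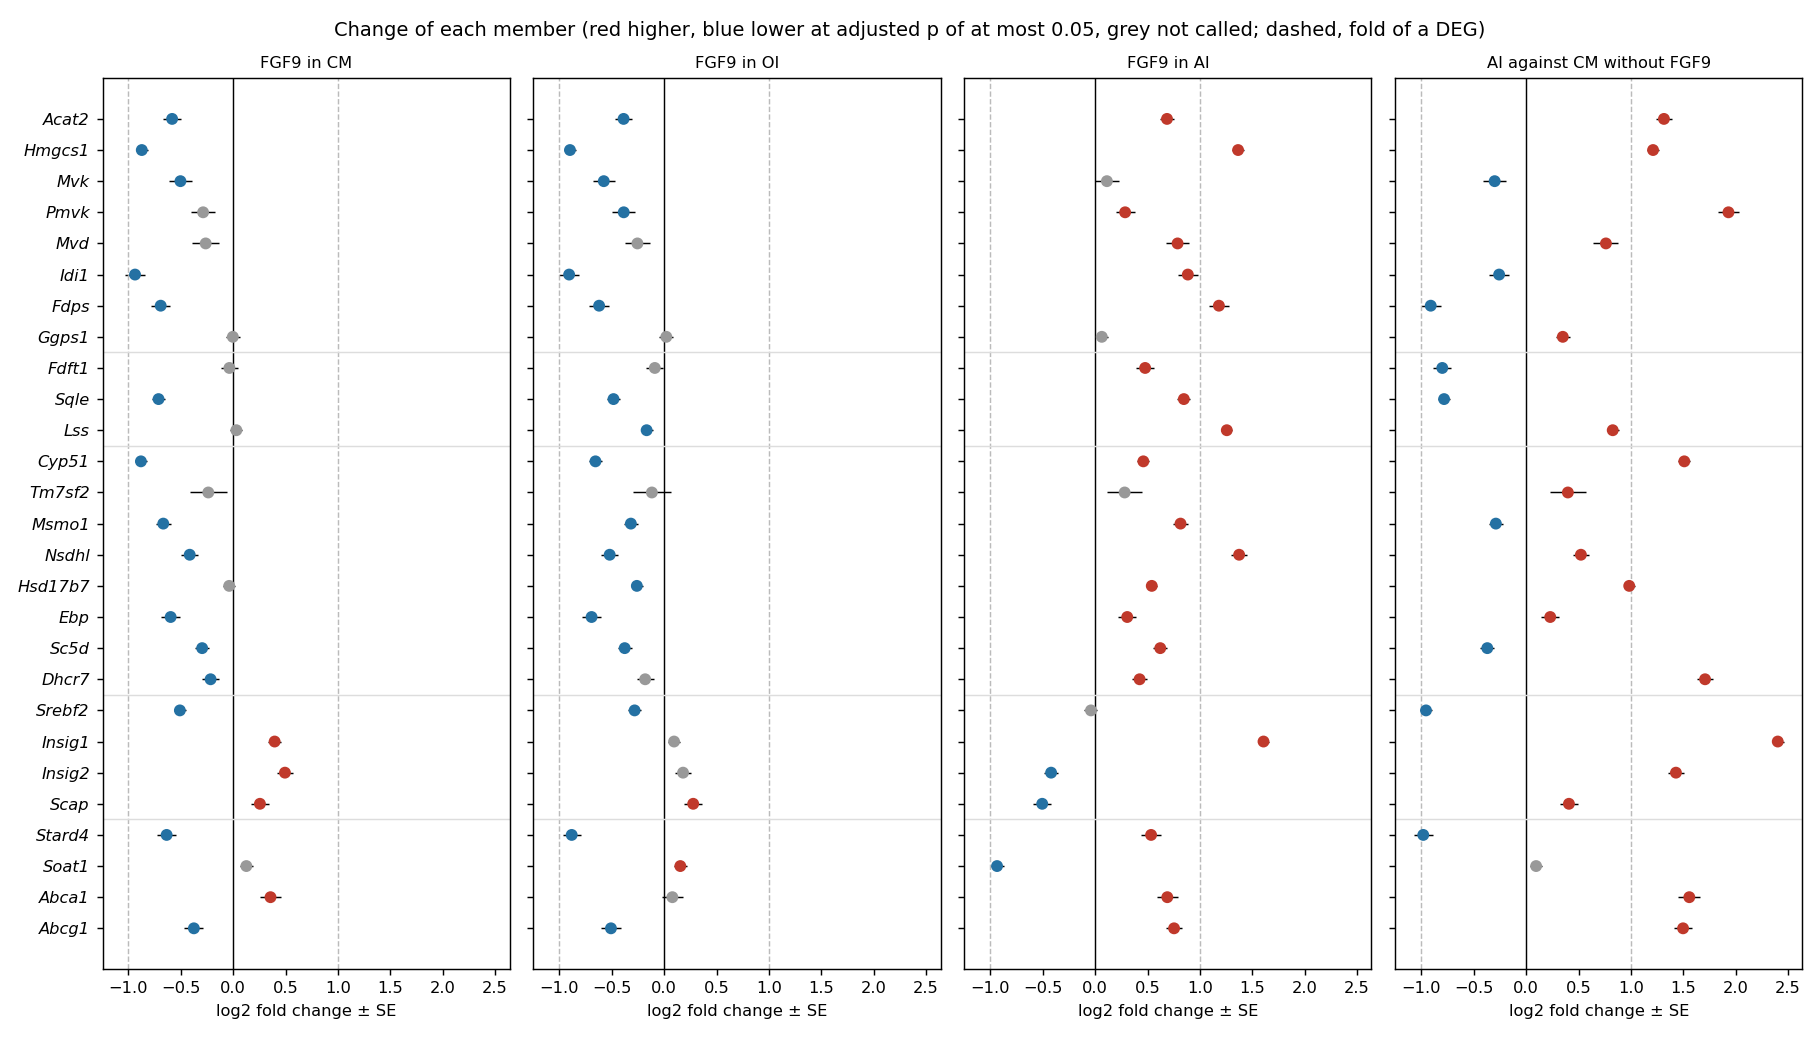
Log2 fold change ± SE of each of the 27 genes, in 3 panels for FGF9 by medium and 1 for AI against CM without FGF9 (n = 3 samples per group), grouped by role and separated by grey lines. Most points of the synthesis genes lie left of 0 in CM and OI and right of 0 in AI, and Insig1 lies farthest right in AI, at 1.61.

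The mevalonate pathway runs from acetyl-CoA to the isoprenoid diphosphates. Of its 8 genes, 5 fell in CM, 6 fell in OI and 6 rose in AI with FGF9. The remaining genes did not pass the test.

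Hmgcs1 (ENSMUSG00000093930, chr13:120151915-120169796 in GRCm39) encodes the cytosolic synthase that makes HMG-CoA. It stood at 161, 154 and 164 FPKM in AI_F9, against 70.8, 69.0 and 74.7 FPKM in AI. In CM_F9 it stood at 16.2, 16.4 and 16.2 FPKM, against 27.6, 28.1 and 30.0 FPKM in CM. In OI_F9 it stood at 15.3, 16.6 and 15.2 FPKM, against 28.8, 26.4 and 29.7 FPKM in OI. All FGF9 samples lay above their controls in AI and below them in CM and OI, with no overlap. The change was 1.36 ± 0.06 in AI (2.57-fold, edgeR adjusted p = 1.77e-15), -0.87 ± 0.06 in CM (edgeR adjusted p = 1.81e-11) and -0.90 ± 0.06 in OI (edgeR adjusted p = 1.07e-11).

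Acat2, which encodes the cytosolic thiolase that joins 2 acetyl-CoA at the head of the route, stood at 37.1, 38.6 and 42.5 FPKM in AI_F9, against 25.4, 28.6 and 30.7 FPKM in AI. It stood at 7.42, 7.18 and 7.36 FPKM in CM_F9, against 9.78, 10.9 and 10.8 FPKM in CM. The groups did not overlap in either medium. Acat2 rose by 0.69 ± 0.07 in AI (edgeR adjusted p = 2.36e-08) and its change in CM was -0.58 ± 0.08 (edgeR adjusted p = 4.17e-06). Acat3, a close copy that may exchange reads with it, did not exceed 1.07 FPKM in any sample.

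Idi1 encodes the isomerase that makes dimethylallyl diphosphate, and Fdps (chr3:89000895-89009266 in GRCm39) the farnesyl diphosphate synthase. Fdps stood at 6.84, 6.95 and 7.53 FPKM in AI_F9, against 3.42, 3.67 and 3.75 FPKM in AI. It stood at 4.38, 3.77 and 4.04 FPKM in CM_F9, against 6.51, 6.01 and 6.36 FPKM in CM. Its AI_F9 samples were the highest or near the highest of all and its AI samples the lowest. The change was 1.18 ± 0.09 in AI (2.27-fold, edgeR adjusted p = 2.59e-10) and -0.69 ± 0.09 in CM (edgeR adjusted p = 2.24e-06). Idi1 averaged 10.3 ± 0.872 FPKM in AI_F9 and 6.47 ± 0.486 FPKM in AI, and 3.90 ± 0.461 FPKM in CM_F9 and 7.16 ± 0.590 FPKM in CM (SD, n = 3 each). Its change of -0.94 ± 0.10 in CM was the largest fall among the 27 genes in that medium.

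Mvk, the mevalonate kinase, fell in CM and OI by 0.50 and 0.58 and had a change of 0.11 ± 0.11 in AI, which did not pass the test. Pmvk, the kinase that follows it, stood at 21.9, 20.1 and 25.2 FPKM in AI_F9, against 20.3, 20.6 and 22.7 FPKM in AI, and these groups overlapped. Its change of 0.29 ± 0.09 in AI passed the test with TMM scaling (edgeR adjusted p = 0.0123) and did not with library size scaling (adjusted p = 0.494) or without AI_F9 replicate 3, AI replicate 1 or AI replicate 2 (adjusted p = 0.0742 to 0.128). Mvd, the decarboxylase that makes isopentenyl diphosphate, rose by 0.79 ± 0.11 in AI and had changes of -0.26 in both CM and OI that did not pass the test. Ggps1, which makes geranylgeranyl diphosphate for protein prenylation and lies on a side branch of the route, had changes of at most 0.06 in size in the 3 media.

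Squalene marks the commitment to sterols. Fdft1 encodes squalene synthase, Sqle squalene epoxidase, and Lss the cyclase that closes the ring to lanosterol. All 3 rose with FGF9 in AI, Sqle fell in CM, and Sqle and Lss fell in OI.

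Sqle stood at 10.8, 11.4 and 12.2 FPKM in AI_F9, against 7.35, 7.37 and 7.32 FPKM in AI. In CM_F9 it stood at 7.27, 7.76 and 7.31 FPKM, against 11.9, 10.8 and 12.4 FPKM in CM. In OI_F9 it stood at 8.12, 8.21 and 7.97 FPKM, against 10.7, 10.7 and 11.4 FPKM in OI. Every FGF9 sample was above its controls in AI and below them in CM and OI. The change was 0.85 ± 0.06 in AI (edgeR adjusted p = 4.95e-11), -0.71 ± 0.06 in CM (edgeR adjusted p = 1.62e-09) and -0.48 ± 0.06 in OI (edgeR adjusted p = 7.8e-07).

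Lss (chr10:76367422-76392972 in GRCm39) stood at 12.3, 12.8 and 12.9 FPKM in AI_F9, against 6.17, 6.21 and 5.99 FPKM in AI. Its 12 samples in CM_F9, CM, OI_F9 and OI lay between 3.14 and 4.02 FPKM. Every AI_F9 sample was above every other sample. The change was 1.26 ± 0.05 in AI (2.39-fold, edgeR adjusted p = 2.71e-15) and 0.03 ± 0.06 in CM (edgeR adjusted p = 0.73). The change of -0.17 ± 0.06 in OI (edgeR adjusted p = 0.0209) did not pass the test under 9 of the alternatives tried, leaving out OI_F9 replicate 2, OI_F9 replicate 3 or OI replicate 2 (adjusted p = 0.0566 to 0.0897) among them.

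Fdft1 averaged 7.06 ± 0.512 FPKM in AI_F9 and 5.84 ± 0.447 FPKM in AI (SD, n = 3 each), a rise of 0.48 ± 0.09 (edgeR adjusted p = 7.06e-05). Its gene span overlaps that of Ctsb on the opposite strand by 774 bases, and exon positions were not compared. Ctsb reached 384 FPKM, and no source used here states whether reads were counted by strand, so the level of Fdft1 is uncertain. Ctsb itself changed by 0.11 in AI, 0.16 in CM and 0.30 in OI.

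After lanosterol the methyl groups are removed, double bonds are moved and the side chain is reduced. Of 8 genes of these steps, 6 fell in CM, 6 fell in OI and 7 rose in AI with FGF9.

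Nsdhl (ENSMUSG00000031349, chrX:71962163-72002120 in GRCm39) encodes a dehydrogenase of the C4 demethylation complex. It stood at 30.3, 30.2 and 33.0 FPKM in AI_F9, against 13.6, 14.3 and 13.8 FPKM in AI. It stood at 7.37, 6.61 and 7.00 FPKM in CM_F9, against 7.91, 9.50 and 9.39 FPKM in CM. The groups did not overlap in either medium, and the AI_F9 samples were the highest of all 18. The change was 1.37 ± 0.07 in AI (2.59-fold, edgeR adjusted p = 2.78e-13), -0.42 ± 0.08 in CM (edgeR adjusted p = 0.000268) and -0.52 ± 0.08 in OI (edgeR adjusted p = 1.17e-05).

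Cyp51 encodes lanosterol 14-alpha-demethylase, the first enzyme after lanosterol. It stood at 78.8, 77.7 and 82.1 FPKM in AI_F9, against 65.5, 63.1 and 71.6 FPKM in AI. In CM_F9 it stood at 13.0, 12.0 and 11.9 FPKM, against 21.5, 21.2 and 22.3 FPKM in CM. The groups were apart in both media, with the larger log2 difference in CM and the larger FPKM difference in AI. The change was 0.46 ± 0.06 in AI (edgeR adjusted p = 3.41e-07), -0.88 ± 0.06 in CM (edgeR adjusted p = 3.25e-11) and -0.66 ± 0.06 in OI (edgeR adjusted p = 5e-09).

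Dhcr7, which reduces 7-dehydrocholesterol to cholesterol, stood at 12.0, 10.9 and 11.5 FPKM in AI_F9, against 10.4, 9.95 and 9.33 FPKM in AI. Its 12 samples in the other groups lay between 2.37 and 3.17 FPKM. Dhcr7 rose by 0.42 ± 0.07 in AI (edgeR adjusted p = 1.78e-05). Its change of -0.22 ± 0.08 in CM (edgeR adjusted p = 0.0404) did not pass the test under 10 of the alternatives, leaving out CM_F9 replicate 2, CM_F9 replicate 3, CM replicate 1 or CM replicate 3 (adjusted p = 0.0885 to 0.146) among them.

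Msmo1, the C4 methyl oxidase, rose by 0.81 ± 0.07 in AI and averaged 15.2 ± 1.38 FPKM in AI_F9 and 10.0 ± 0.588 FPKM in AI. Sc5d, the desaturase before Dhcr7, rose by 0.62 ± 0.07, and Hsd17b7, the ketoreductase of C4 demethylation, rose by 0.54 ± 0.05. Ebp, the isomerase of the B ring, rose by 0.31 ± 0.09 with TMM scaling (edgeR adjusted p = 0.00455), a call that was lost with library size scaling (adjusted p = 0.352). Tm7sf2, a sterol C14 reductase, was the lowest of the 8, at 1.05 to 2.25 FPKM over all samples, and its change of 0.28 ± 0.17 in AI did not pass the test.

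**Figure D2:**
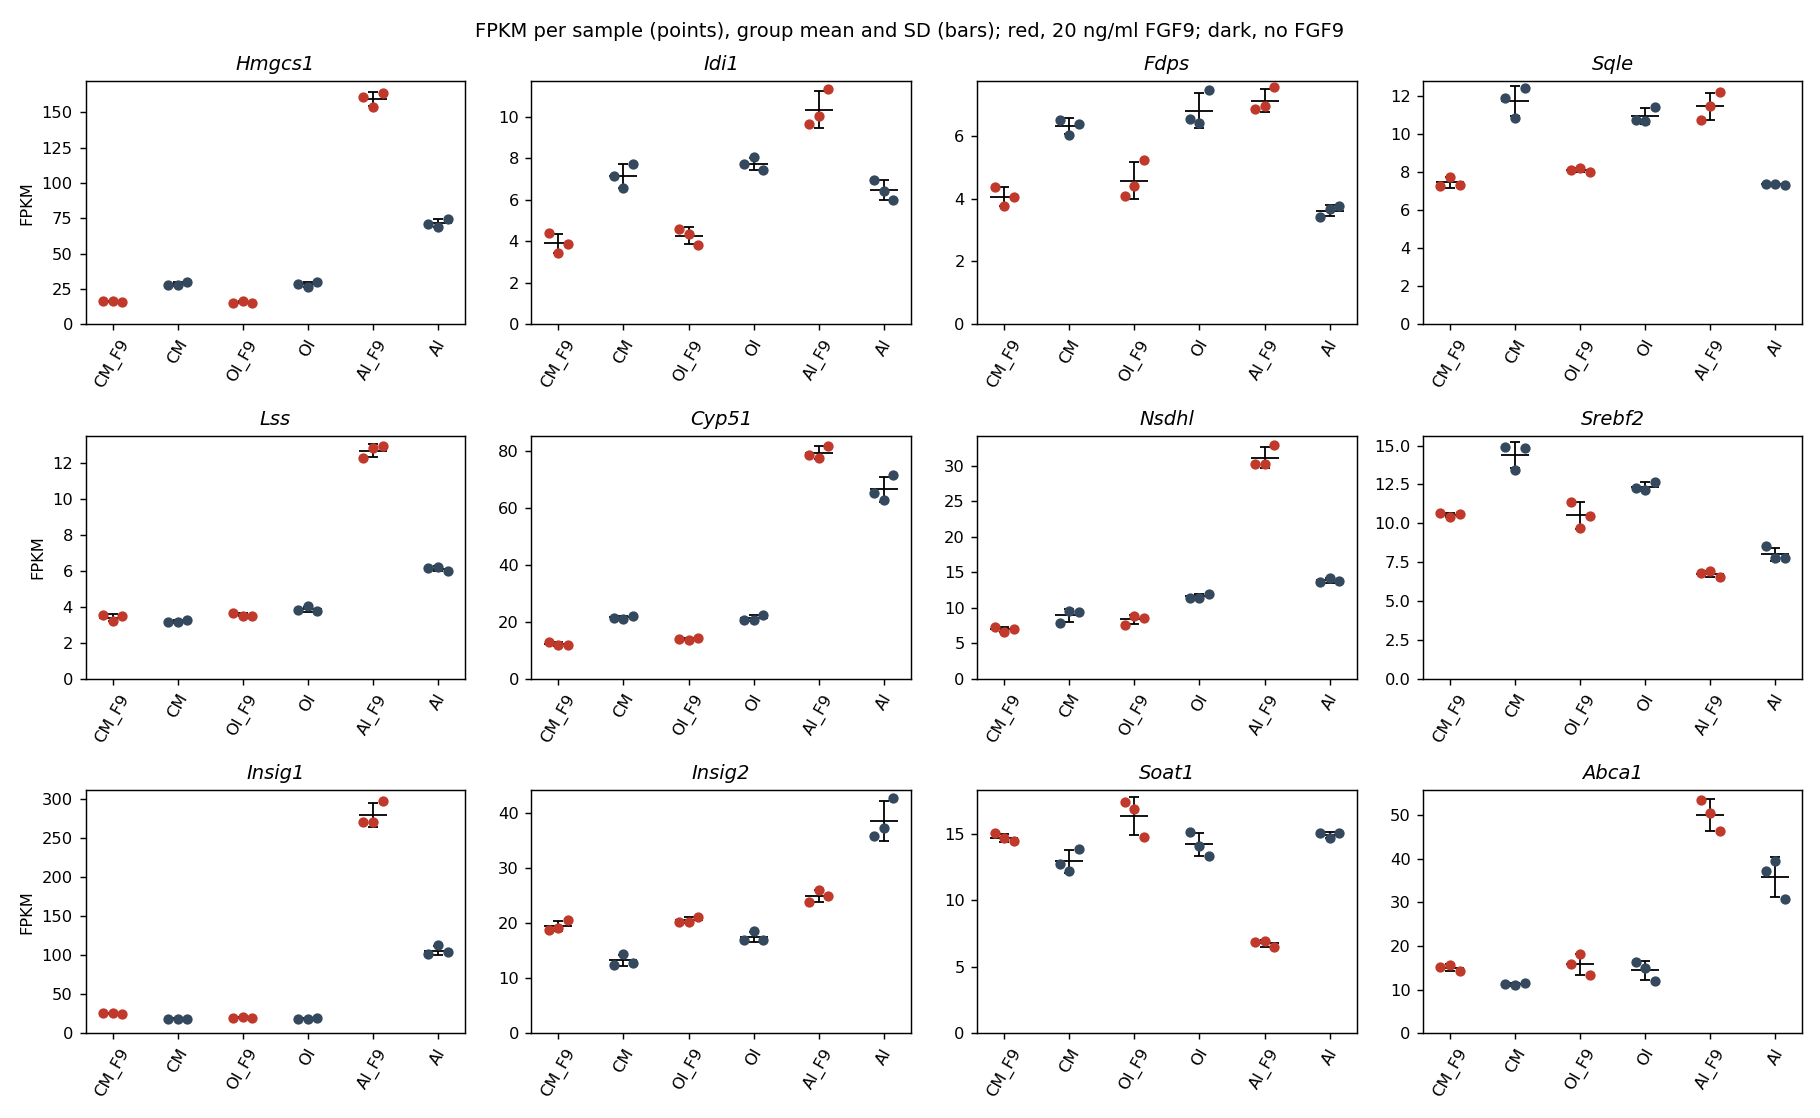
FPKM of 12 of the 27 genes in each sample, with the group mean and SD (n = 3 per group) and every vertical axis starting at 0. Hmgcs1, Idi1, Lss, Cyp51, Nsdhl, Insig1 and Abca1 have all 3 AI_F9 samples (161, 154 and 164 FPKM for Hmgcs1) above all other samples. Srebf2 and Soat1 have their AI_F9 samples below all others.

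The genes that sense sterol moved in mixed directions. Of the 4, Insig1, Insig2 and Scap rose and Srebf2 fell in CM. In OI Scap rose and Srebf2 fell, and in AI Insig1 rose while Insig2 and Scap fell.

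Srebf2, which encodes SREBP2, stood at 10.6, 10.4 and 10.6 FPKM in CM_F9, against 14.9, 13.5 and 14.8 FPKM in CM. In OI_F9 it stood at 11.4, 9.68 and 10.5 FPKM, against 12.3, 12.1 and 12.7 FPKM in OI. In AI_F9 it stood at 6.80, 6.94 and 6.53 FPKM, against 8.51, 7.79 and 7.74 FPKM in AI. The FGF9 samples were below their controls in FPKM in all 3 media. With TMM scaling the change was -0.51 ± 0.06 in CM (edgeR adjusted p = 2.2e-07), -0.28 ± 0.06 in OI (edgeR adjusted p = 0.000494) and -0.04 ± 0.06 in AI (edgeR adjusted p = 0.619). With library size scaling the fall in AI passed the test (adjusted p = 0.00215). The transcript of the regulator therefore did not rise in AI under either scaling, while 20 of the 27 genes rose there with TMM and 18 with library size.

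Insig1 (ENSMUSG00000045294, chr5:28276361-28283660 in GRCm39), itself a target of SREBP2, stood at 271, 271 and 298 FPKM in AI_F9, against 102, 113 and 104 FPKM in AI. In CM_F9 it stood at 26.2, 25.5 and 24.8 FPKM, against 18.9, 17.9 and 18.9 FPKM in CM. In OI_F9 it stood at 20.1, 21.1 and 20.3 FPKM, against 18.2, 17.9 and 19.4 FPKM in OI. All FGF9 samples were above their controls in each medium, by the smallest margin in OI. The change was 1.61 ± 0.06 in AI (3.05-fold, edgeR adjusted p = 7.55e-17), 0.40 ± 0.06 in CM (edgeR adjusted p = 8.61e-06) and 0.09 ± 0.06 in OI (edgeR adjusted p = 0.225). Insig1 thus rose in CM, where most enzymes of the pathway fell.

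Insig2 stood at 23.9, 26.1 and 25.0 FPKM in AI_F9, against 35.8, 37.3 and 42.7 FPKM in AI. It stood at 18.8, 19.1 and 20.5 FPKM in CM_F9, against 12.5, 14.4 and 12.8 FPKM in CM. The groups did not overlap, and the order in AI was the reverse of that in CM. Insig2 changed by -0.42 ± 0.07 in AI (edgeR adjusted p = 2.63e-05), 0.49 ± 0.07 in CM (edgeR adjusted p = 1e-05) and 0.18 ± 0.07 in OI (edgeR adjusted p = 0.055). The rise in OI passed the test where the replicate number was a block in all groups (adjusted p = 0.0196) or in a fit of OI_F9 and OI alone (adjusted p = 0.0147). Scap averaged 6.03 ± 0.571 FPKM in AI_F9 and 9.89 ± 0.844 FPKM in AI, and 8.57 ± 0.407 FPKM in CM_F9 and 6.89 ± 0.366 FPKM in CM (SD, n = 3 each). It changed by -0.51 ± 0.09 in AI and 0.25 ± 0.09 in CM. The call in CM was lost when any of CM_F9 replicate 1, CM_F9 replicate 2, CM replicate 2 or CM replicate 3 was left out, with adjusted p of 0.0554 to 0.0871. The change of 0.28 ± 0.09 in OI (edgeR adjusted p = 0.0128) was lost without OI_F9 replicate 1 (0.16, adjusted p = 0.146), without OI replicate 2 (adjusted p = 0.0606) and in a fit of only OI_F9 and OI (adjusted p = 0.0516).

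Soat1 encodes the enzyme of the endoplasmic reticulum that esterifies cholesterol for storage and is abundant in macrophages. It stood at 6.88, 6.93 and 6.48 FPKM in AI_F9, against 15.1, 14.7 and 15.1 FPKM in AI. Its 12 samples in CM and OI, with or without FGF9, lay between 12.2 and 17.4 FPKM, all above AI_F9. The change was -0.94 ± 0.06 in AI (edgeR adjusted p = 1.01e-11), and without TMM it was -1.14. In CM the change was 0.12 ± 0.06 and did not pass the test, and the call in OI (0.15 ± 0.06, edgeR adjusted p = 0.0461) was lost under 8 of the alternatives, DESeq2 and leaving out OI_F9 replicate 1 (adjusted p = 0.252), OI_F9 replicate 2, OI replicate 2 or OI replicate 3 among them. Stard4, which carries sterol between membranes, averaged 4.10 ± 0.240 FPKM in AI_F9 and 3.27 ± 0.189 FPKM in AI (SD, n = 3 each) and changed by 0.53 ± 0.09 in AI, -0.64 ± 0.09 in CM and -0.88 ± 0.09 in OI.

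Abca1 and Abcg1 encode the transporters that load cholesterol onto apolipoproteins and high-density lipoprotein. Abca1 stood at 53.4, 50.4 and 46.2 FPKM in AI_F9, against 37.2, 39.5 and 30.7 FPKM in AI. In CM_F9 it stood at 15.1, 15.7 and 14.2 FPKM, against 11.2, 11.0 and 11.6 FPKM in CM. FGF9 samples were higher in both media without overlap, and in OI the groups overlapped. The change was 0.69 ± 0.10 in AI (edgeR adjusted p = 4.48e-06), 0.36 ± 0.10 in CM (edgeR adjusted p = 0.00913) and 0.08 ± 0.10 in OI (edgeR adjusted p = 0.593).

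Abcg1 stood at 13.1, 11.2 and 11.4 FPKM in AI_F9, against 8.67, 8.18 and 7.56 FPKM in AI. In CM_F9 it stood at 2.09, 2.22 and 2.11 FPKM, against 2.50, 2.42 and 3.08 FPKM in CM. It was higher with FGF9 in AI and lower with FGF9 in CM, without overlap. The change was 0.75 ± 0.08 in AI (edgeR adjusted p = 1.85e-08), -0.38 ± 0.09 in CM (edgeR adjusted p = 0.00195) and -0.51 ± 0.09 in OI (edgeR adjusted p = 8.67e-05). Both exporters rose in AI, and in CM Abca1 rose and Abcg1 fell.

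The difference in the FGF9 response between media was tested by itself, as an interaction. The response in AI minus that in CM was above 0 for 21 of the 27 genes and below 0 for 3, where 19.4% of all tested genes passed above 0 and 20.6% below. The response in AI minus that in OI was above 0 for 22 genes and below 0 for 3, where 19.7% of all tested genes passed above 0 and 20.3% below. These 2 differences share the AI_F9 and AI samples. Both differences were called and at least 1 for 13 members, where 3.92% of all tested genes were, and called and at most -1 for 1, Soat1, where 6.04% were. The median difference over the members was 0.92 for AI minus CM, and -0.0039 over all tested genes. With library size scaling, which shifted the median of all genes by -0.267 in AI minus CM, 17 members stayed above 0 and 3 below.

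Hmgcs1 had the largest difference, 2.24 ± 0.08 for AI minus CM (edgeR adjusted p = 1.07e-15). Fdps followed with 1.87 ± 0.13, Idi1 with 1.82 ± 0.14 and Nsdhl with 1.79 ± 0.11. The 3 genes with a difference below 0 were Soat1 (-1.06 ± 0.09), Insig2 (-0.91 ± 0.10) and Scap (-0.76 ± 0.12). For Tm7sf2, Ggps1 and Abca1 the difference did not pass the test. For Mvk, Pmvk, Fdft1 and Srebf2 it passed with TMM and not with library size scaling.

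**Figure D3:**
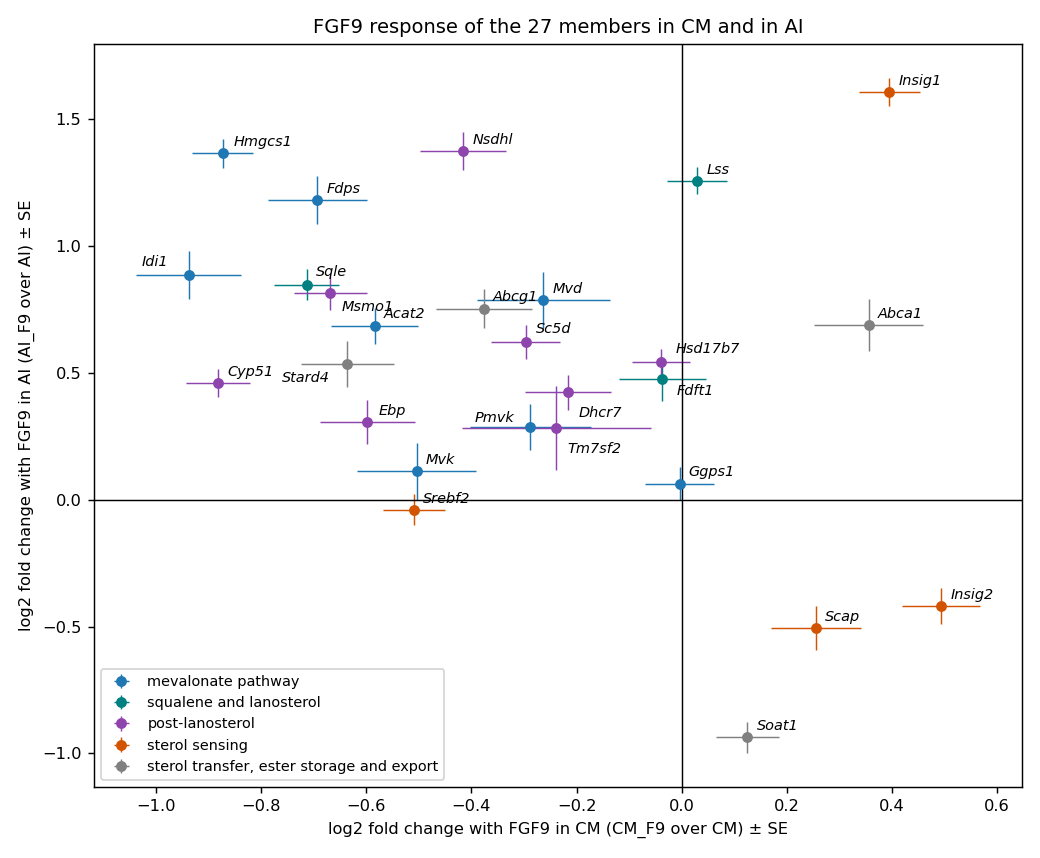
Log2 fold change ± SE with FGF9 in CM (horizontal) and in AI (vertical) for the 27 genes, coloured by role (n = 3 samples per group). Most enzymes lie in the upper left, with Hmgcs1 at -0.87 and 1.36. Insig1 and Abca1 are higher in both media, and Insig2, Scap and Soat1 lie in the lower right, where the value of Soat1 in CM did not pass the test.

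The responses in OI and CM were hard to tell apart. The difference OI minus CM passed above 0 for 1 gene, Msmo1 (0.35 ± 0.10, edgeR adjusted p = 0.0335), where 2.12% of all tested genes did. It passed below 0 for 1 gene, Insig1 (-0.30 ± 0.08, edgeR adjusted p = 0.0339), where 3.37% of all tested genes did. Each of these calls was lost when 1 of 9 libraries was left out, with an adjusted p of up to 0.0936 for Msmo1 and up to 0.112 for Insig1. For Hmgcs1 the difference was -0.03 ± 0.08.

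Without FGF9, the cholesterol genes already differed between AI and CM. Of the 27, 17 were higher and 9 lower in AI, where 28.5% of all tested genes were higher and 30.5% lower. The 9 DEGs higher in AI were Acat2, Hmgcs1, Pmvk, Cyp51, Dhcr7, Insig1, Insig2, Abca1 and Abcg1, where 8.68% of all tested genes were. DEGs lower in AI were 13.5% of all tested genes and 0 of the members under edgeR and DESeq2, also at an unadjusted p under 0.05. This comparison shares the AI samples with that of FGF9 in AI and the CM samples with that of FGF9 in CM, and the values are given side by side.

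Insig1 differed most, with 102, 113 and 104 FPKM in AI, against 18.9, 17.9 and 18.9 FPKM in CM, a change of 2.40 ± 0.06 (5.28-fold, edgeR adjusted p = 8.48e-20). Pmvk followed, with 20.3, 20.6 and 22.7 FPKM in AI, against 5.28, 5.01 and 5.15 FPKM in CM, a change of 1.93 ± 0.10. Dhcr7 had 10.4, 9.95 and 9.33 FPKM in AI, against 2.86, 2.55 and 2.98 FPKM in CM, a change of 1.71 ± 0.08. In each of these genes every AI sample was above every CM sample, with no overlap. Pmvk and Dhcr7 thus differed far more between the media than with FGF9 in AI, where they changed by 0.29 and 0.42.

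The AI against CM changes of the other DEGs were 1.56 ± 0.10 for Abca1, 1.51 ± 0.06 for Cyp51, 1.50 ± 0.08 for Abcg1, 1.43 ± 0.07 for Insig2, 1.32 ± 0.08 for Acat2 and 1.21 ± 0.06 for Hmgcs1. The 9 genes lower in AI were Stard4 (-0.98 ± 0.09), Srebf2 (-0.96 ± 0.06), Fdps (-0.91 ± 0.09), Fdft1 (-0.80 ± 0.09), Sqle (-0.78 ± 0.06), Sc5d, Mvk, Msmo1 and Idi1, the last 4 with changes between -0.37 and -0.26. The route did not differ in one direction. Idi1, Fdps, Fdft1 and Sqle, which act one after another, were lower in AI, while Mvd before them and Lss and Cyp51 after them were higher. The calls of Idi1 (adjusted p = 0.195) and Mvk (adjusted p = 0.142) were lost with library size scaling. Leaving out 1 library also lost the call of Idi1 (CM replicate 3, AI replicate 2 or AI replicate 3) and of Mvk (CM replicate 1, CM replicate 2, AI replicate 2 or AI replicate 3). Among the genes higher in AI it lost that of Tm7sf2 (CM replicate 2, CM replicate 3, AI replicate 1 or AI replicate 3) and of Ebp (CM replicate 1, CM replicate 2 or AI replicate 3), with adjusted p of up to 0.218.

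OI and CM without FGF9 were closer. Of the 27 genes 7 were higher in OI, where 11.8% of all tested genes were, and 1, Srebf2 (-0.24 ± 0.06), was lower, where 10.8% were. The 7 were Mvk (0.51 ± 0.11), Pmvk (0.40 ± 0.11), Insig2 (0.38 ± 0.07), Stard4 (0.36 ± 0.08), Nsdhl (0.35 ± 0.08), Abca1 (0.34 ± 0.10) and Lss (0.25 ± 0.06). The call of Abca1 was lost when CM replicate 1, CM replicate 2, OI replicate 1 or OI replicate 2 was left out, with adjusted p of 0.0588 to 0.128, and with limma on log2(FPKM + 1). That of Pmvk was lost without OI replicate 3 (adjusted p = 0.0643).

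Over the 6 groups, 18 of the 27 genes had their highest mean FPKM in AI_F9, where 22.1% of all tested genes had theirs, and 11 had their lowest in CM_F9, where 10.3% of all tested genes had theirs. Summed over the 8 mevalonate genes, the level was 266 to 285 FPKM in AI_F9, against 158 to 171 FPKM in AI, and 56.5 to 58.6 FPKM in CM_F9, against 80.1 to 82.4 FPKM in CM. Summed over the 8 post-lanosterol genes, it was 188 to 198 FPKM in AI_F9, against 142 to 151 FPKM in AI, and 56.4 to 59.1 FPKM in CM_F9, against 76.7 to 80.8 FPKM in CM. The 3 genes of squalene and lanosterol summed to 30.3 to 32.5 FPKM in AI_F9, against 19.0 to 19.6 FPKM in AI. Hmgcs1 and Cyp51 weigh most in the first 2 sums, since sums follow the most abundant gene.

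Markers of other cell types moved with the same conditions. The 8 adipocyte markers, Adipoq, Plin1, Fabp4 and others, all rose with FGF9 in AI and summed to 22740 to 24470 CPM (counts scaled to a common library total) in AI_F9, against 9665 to 10560 CPM in AI. All 8 were also higher in AI than in CM, where they summed to 521 to 688 CPM. In CM and in OI 6 of the 8 rose and 2, Cd36 and Lpl, fell with FGF9, while most enzymes of cholesterol synthesis fell. The median log2 fold change of the 8 was 1.68 in CM and 0.85 in OI. The sum of the 8 was 597 to 639 CPM in CM_F9, which overlapped that in CM. In OI_F9 it was 684 to 748 CPM, below the 783 to 827 CPM in OI. Lpl, which fell, weighs most in these sums in CM and OI. Of the 14 macrophage and other haematopoietic markers, 13 fell in AI, to a sum of 548 to 589 CPM in AI_F9, against 1953 to 2240 CPM in AI. In CM 11 of the 14 fell, and in OI 8 fell and 1 rose. Soat1 also fell with FGF9 in AI and did not fall in CM or OI, and whether that is related to these markers was not tested. Cd74 had 0 reads in all AI libraries, where Lyz2 had 26442 to 33109. Lyz2 weighs most in the sums of the 14 in AI_F9 and AI. The 4 positive surface markers of the study's BMSCs (Pdgfra, Ly6a, Cd44 and Itgb1) were read in every group. They summed to 1237 to 1271 CPM in AI_F9, against 1664 to 1760 CPM in AI, and Itgb1 weighs most in that sum. One by one they were mixed: in AI Ly6a rose with FGF9 (1.30), Pdgfra and Itgb1 fell, and Cd44 did not pass the test. In CM and in OI 3 of the 4 rose and 1 fell. The study's flow cytometry describes the cells as CD45-negative, and Ptprc, which encodes CD45, was at 0.367 FPKM in AI_F9 and 1.12 FPKM in AI, and at 2.26 FPKM in CM_F9 and 3.62 FPKM in CM on average.

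The 6 proliferation markers, such as Mki67 and Top2a, all fell in CM, 4 fell in OI and 5 rose in AI with FGF9. Most synthesis genes changed in the same directions with FGF9. Without FGF9, 5 of the 6 markers were lower in AI than in CM and 0 were higher. In that comparison 17 of the cholesterol genes were higher and 9 were lower. The 6 markers summed to 369 to 383 CPM in AI_F9, against 289 to 295 CPM in AI. In CM_F9 the sum was 338 to 369 CPM, against 439 to 545 CPM in CM. Of the 8 endothelial markers 2 fell and 1 rose in CM, where 18.9% of all tested genes fell and 18.5% rose. In OI 7 fell, where 20.1% of all tested genes did. In AI 7 fell and 1 rose, where 23.7% of all tested genes fell and 26.9% rose. The 4 smooth muscle markers all fell in CM and OI, where they summed to 101 to 134 CPM in OI_F9, against 1722 to 2115 CPM in OI, and 3 fell in AI. The osteoblast list of 6 markers was split in each medium, with 2 higher and 4 lower under FGF9 in AI, 3 higher and 2 lower in CM, and 2 higher and 2 lower in OI. The part of these cell types, of proliferation and of fat cell formation in the changes of the cholesterol genes was not tested. In such bulk samples fewer cells of a type and less RNA per cell cannot be told apart.

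Other genes around the pathway were read from lists. With FGF9, 26.9% of all tested genes rose and 23.7% fell in AI. These shares were 18.5% and 18.9% in CM, and 19.8% and 20.1% in OI. Of 9 genes of acetyl-CoA supply and SREBP1-driven lipogenesis, all 9 rose with FGF9 in AI and 6 were DEGs, with changes of 2.35 for Scd1 (stearoyl-CoA desaturase), 1.51 for Acaca (acetyl-CoA carboxylase), 1.22 for Acss2 (acetyl-CoA synthetase) and 1.04 for Acly (ATP citrate lyase). Among the 9, 1 fell and 3 rose in CM, and 3 fell and 2 rose in OI. Of 10 genes of the isoprenoid branch 7 rose and 1 fell in AI, with 1.29 for Pdss1, which makes the side chain of ubiquinone, and 0.72 for Nus1, a subunit of the dolichol-forming transferase. Dhdds, which encodes the other subunit of that transferase, was the 1 that fell in AI (-0.15, edgeR adjusted p = 0.0471). In CM and in OI 1 of the 10, Pggt1b, fell and the remaining 9 did not pass the test.

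The counts of the next 3 lists are to be read beside the shares of all tested genes, 26.9% higher and 23.7% lower in AI. Of 11 genes of sterol uptake and lysosomal transfer, 4 rose and 2 fell in AI. Scarb1, the receptor for high-density lipoprotein, rose by 1.05, Vldlr by 0.99 and Npc2, which hands cholesterol out of lysosomes, by 0.91, and Lipa, the lysosomal acid lipase, had a change of -0.68. Among the 11, 4 fell and 3 rose in CM, and 4 fell and 5 rose in OI. Of 8 genes of SREBP processing and turnover, 3 fell and 3 rose in AI. In CM 2 fell and 1 rose, and in OI 2 fell and 3 rose. Erlin1, a sterol-binding protein of the endoplasmic reticulum, had the largest change of that list in AI, 0.92. Of 8 genes of LXR and oxysterols, 2 rose in AI, Lpcat3 (1.23) and Nr1h3 (0.61), which encodes LXR alpha, and 1 fell, Nceh1 (-1.02), a hydrolase of cholesteryl esters. Nr1h3 fell in CM (-0.56) and OI (-0.62). Among the 8, 1 fell and 2 rose in CM, and 2 fell and 1 rose in OI.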

How the data were processed

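RNA-seq of mouse BMSCs was analysed in 6 groups of 3 samples, grouped by their labels. Per the labels, the authors used cutadapt 1.9.1 for trimming, HISAT2 2.2.1 for alignment (build GRCm39) and HTSeq 0.6.1 for the counts of reads in genes. No source used here states the strand setting. The deposited units are the read count and FPKM, which the authors computed from those counts: 100% of values of at least 5 were within 1% of count over length and library total. The authors' fold changes and p values were not used. Library totals were 16719561 to 20526502 reads.

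The counts of all 18 samples entered 1 edgeR fit (edgeR 4.0.16 under R 4.3.3) after filterByExpr and TMM, with a mean for each group. Contrasts were tested by quasi-likelihood, adjusted by Benjamini and Hochberg over 17631 genes. The study names DESeq2 for its DEGs, and DESeq2 is an alternative here. With 3 samples against 3 an exact permutation test cannot go below 0.1, so none is given. The steps were tested on simulated counts. Same-numbered samples of OI_F9 and OI deviated together (r of 0.195, 0.213 and 0.243), so the numbers were taken to pair them from the data, not from a label. The main fit did not use that pairing, which entered only as a block among the alternatives. For FGF9 in AI r was 0.0848, 0.0609 and 0.239, and in CM 0.0213, 0.0519 and 0.0293. In the comparisons of media without FGF9 no r was above 0.0744. None of these were taken as paired.

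The alternatives were DESeq2 1.42.0, library size scaling without TMM, no filter, a filter of 1 CPM in 9 samples, limma 3.58.1 on log2 of the deposited FPKM with 0.5, 0.1 or 1 added, only the groups compared, the replicate number as a block, and leaving out each replicate. The OI fit with a block and only its own groups was added after the data were seen. The members and gene lists were chosen with earlier results of these data known. Any member could be named. Values per sample were given for members that were DEGs with FGF9 or in AI against CM. They were also given for Hmgcs1, Sqle, Srebf2, Insig1, Abca1 and Abcg1, with Soat1 added after its values were seen. Of other lists at most 4 members with the smallest adjusted p were named, except for some cell type markers. Plin1 was an example, Ptprc was named because it encodes CD45, and Cd74 for its lack of reads in AI. Cd36 and Lpl were named as the adipocyte markers that fell in CM and OI, and Lyz2 for its weight in a sum. Outside the markers, Dhdds was named as the isoprenoid gene that fell in AI. Gene positions are those of the deposited table in GRCm39, and promoter letters come from RefSeq in GRCm38.p6. Of the members, 6 overlap in gene span, introns included, with another gene of at least 1 FPKM (Hmgcs1, Fdps, Fdft1, Cyp51, Tm7sf2 and Ggps1). Exon positions were not compared.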

Additional observations from a re-analysis of the deposited data

Results flagged for a closer look

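For 14 of the 27 genes the FGF9 response in AI differed from those in CM and in OI by a log2 value of at least 1 in size, with an adjusted p of at most 0.05 in the interaction test of edgeR, which is what singled them out. For AI minus CM the differences were 2.24 for Hmgcs1, 1.87 for Fdps, 1.82 for Idi1, 1.79 for Nsdhl, 1.56 for Sqle, 1.48 for Msmo1, 1.34 for Cyp51, 1.27 for Acat2, 1.23 for Lss, 1.21 for Insig1, 1.17 for Stard4, 1.13 for Abcg1, 1.05 for Mvd and -1.06 for Soat1. For AI minus OI they were 2.26 for Hmgcs1, 1.89 for Nsdhl, 1.80 for Fdps, 1.79 for Idi1, 1.51 for Insig1, 1.42 for Lss, 1.42 for Stard4, 1.33 for Sqle, 1.26 for Abcg1, 1.13 for Msmo1, 1.12 for Cyp51, 1.07 for Acat2, 1.04 for Mvd and -1.09 for Soat1. Of the 14, 13 had a more positive response in AI, where 3.92% of all tested genes passed the same rule, and 1, Soat1, a more negative one, where 6.04% did. Both sets rest on the same AI_F9 and AI samples. Adipocyte, macrophage and proliferation markers changed in AI as well, as given above, and their part in these differences was not tested.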

How the results depend on the processing

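With FGF9 in AI, the members higher kept within 1.5 times of the reported 20 under all alternatives, and so did the members lower in CM (15) and OI (17). The number of members higher in OI, 2 as reported, was 1 with DESeq2, with no filter and with the stricter filter, 4 with limma at each of the 3 added values, and 0 with only the groups of the contrast. Leaving out 1 replicate gave 0 to 2. Member DEGs higher in AI, 5 as reported, were 3 with limma on log2(FPKM + 0.5) or log2(FPKM + 1). Member DEGs lower in AI, 0 as reported, were 1 with library size scaling and with limma at each added value. That member was Soat1, whose change without TMM was -1.14. Leaving out 1 replicate gave 0 to 1 member DEGs lower in CM and 0 to 1 lower in AI against CM. The members with an OI minus CM difference below 0, 1 as reported, were 2 with no filter and 2 with the replicate block, and 0 to 1 with 1 replicate left out. Those above 0 were also 0 to 1. The AI minus OI difference of Srebf2, 0.24 as reported, reversed to -0.0123 with library size scaling, -0.0034 with limma on log2(FPKM + 0.5) and -0.0077 with log2(FPKM + 0.1). That of Ggps1, 0.04 as reported, reversed to -0.20 with log2(FPKM + 1). The causes were not tested. The replicate block left the number of members higher in AI at 20, those lower in OI at 17 and those lower in CM at 16. It added calls for Pmvk in CM (adjusted p = 0.03), Insig2 in OI (adjusted p = 0.0196), and the interactions of Abca1 (0.00409) and Tm7sf2 (0.0414) in AI minus CM and of Insig2 (0.0245) in OI minus CM, and removed 0 calls of members. Tm7sf2, at 1.05 to 2.25 FPKM, had the largest SE of the members with FGF9 in each medium. Whether depth sets that SE was not tested.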
